A study of Mus musculus with 8 samples.

Results

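The p53-type DNA damage response was followed through 10 of its genes in cultured 4T1 cells, a mouse mammary carcinoma line. The 10 genes were matched by mouse gene symbol among 23606 genes of the deposited results table and are Trp53, Trp73, Mdm2, Cdkn1a, Ccng1, Gadd45a, Bbc3, Bax, Pmaip1 and Gdf15. Hypo cells received SKL2001 together with decitabine overnight (replicates 2 to 5, n = 4). Ctrl cells received SKL2001 alone overnight (replicates 1 to 4, n = 4). All 8 libraries thus come from SKL2001-treated cells of 1 line labelled wild type, and no group without SKL2001 was analysed here. SKL2001 is described as stabilizing β-catenin in the canonical Wnt pathway. Decitabine is a cytidine analog that is built into DNA and traps DNA methyltransferases, so that DNA methylation falls as cells divide.

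The transcription factor p53 is kept low by the ubiquitin ligase encoded by Mdm2, and damage kinases release it from that control. Stabilized p53 binds paired 10-base elements in or near its target genes, which halt the cell cycle (Cdkn1a), start apoptosis (Bbc3, Pmaip1, Bax) or feed back on p53 itself (Mdm2, Ccng1). Several of these genes also answer to other factors, among them ATF4 and CHOP of the integrated stress response and the p53 relatives p63 and p73. 4T1 cells have been described as lacking functional p53, which neither the sample labels nor the methods address. Protein levels and p53 activity were not measured here.

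In Hypo cells 4 of the 10 genes rose and none fell, and without Ctrl replicate 3, a library described next, 6 rose and Ccng1 fell. Gdf15 and Pmaip1, both at or near 0 in Ctrl, rose to 64.1 ± 25.3 and 22.2 ± 11.6 normalized counts in Hypo, against 1.34 ± 1.58 and 1.34 ± 1.10 in Ctrl (SD, n = 4 each). Cdkn1a rose 1.78-fold and Mdm2 1.25-fold. Trp53, Bbc3, Bax, Ccng1 and Gadd45a did not pass the test, and Trp73 was too low to be tested. Normalized counts are reads per gene divided by a size factor of the library. The test was limma on the deposited variance-stabilized values, a log2-like scale on which a count of 0 has the value 7.08, so that differences of low genes are compressed. Genes were called at a Benjamini-Hochberg adjusted p below 0.05 over 15746 genes with a mean of at least 10 normalized counts, of which 14.1% were called higher and 8.75% lower in Hypo (22.8% in all). Of the 10 genes 9 met that minimum, and Gdf15 and Pmaip1 met it only through their Hypo level, so the share called among the 9 is not set against the share of all genes. Without a minimum, all 10 were tested with the same 4 called, and 14.3% of 23215 genes were called higher and 5.9% lower (20.2% in all). The count of 0 for falls was the same with edgeR and DESeq2, and at an unadjusted p below 0.05 limma gave 1 fall, that of Ccng1. All 4 Hypo values lay above all 4 Ctrl values in the 4 called genes and the groups overlapped in the other 6. Over all 23215 genes, 15.8% had Hypo wholly above Ctrl and 7.31% wholly below.

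**Figure D1:**
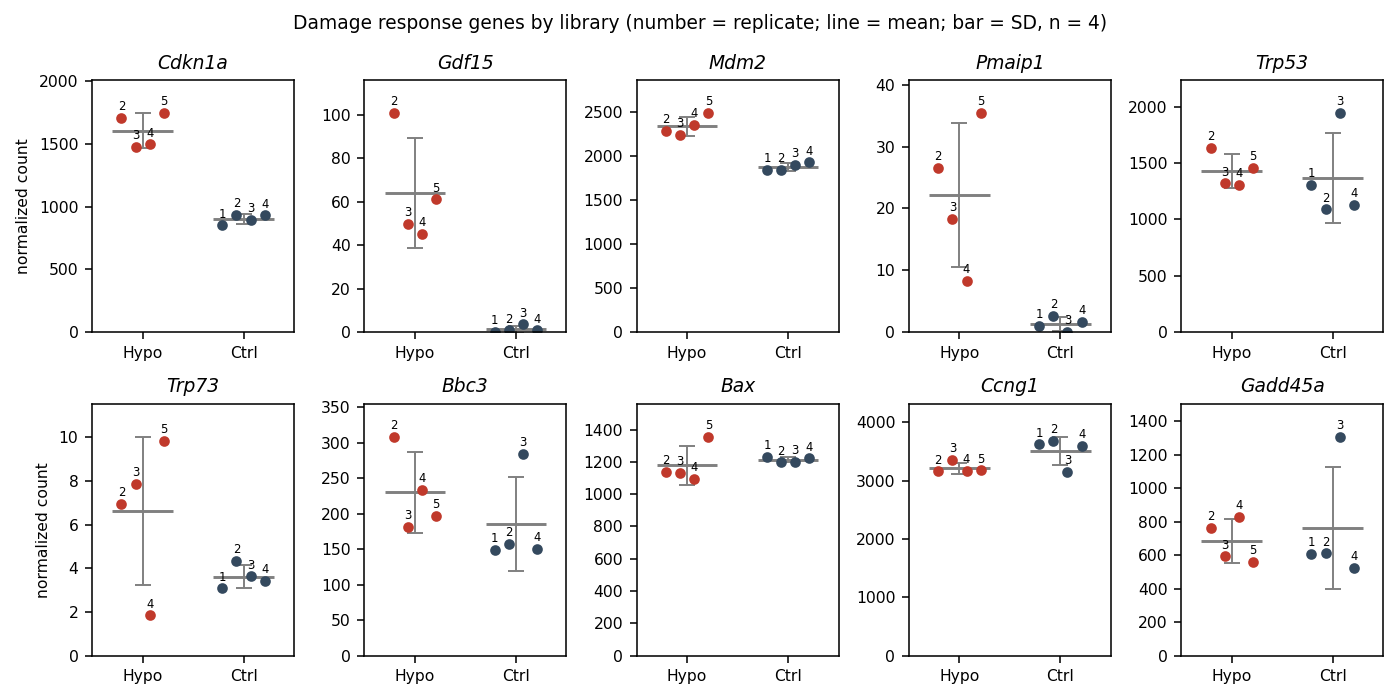
Normalized counts of the 10 genes by library, 1 panel per gene with its own axis from 0, Hypo replicates 2 to 5 on the left and Ctrl replicates 1 to 4 on the right. Each point is 1 library, the line is the group mean and the bar its SD (n = 4): Hypo lies wholly above Ctrl for Gdf15, Pmaip1, Cdkn1a and Mdm2, and Ctrl replicate 3 is the highest library for Trp53 and Gadd45a.

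The libraries held 27486245 to 39388394 reads in genes. Ctrl replicate 3 stood apart in genes of the integrated stress response, a programme of amino acid and endoplasmic reticulum stress. The mean transformed value of 19 such genes was 11.50, 11.13, 11.18 and 11.16 in Hypo replicates 2 to 5, against 11.21, 11.04, 11.92 and 10.91 in Ctrl replicates 1 to 4. Epithelial markers were abundant, with the 6 genes Epcam, Krt8, Krt18, Krt19, Krt7 and Cdh1 summing to 114258 to 130462 normalized counts in Hypo and 124380 to 141848 in Ctrl. Markers of fibroblasts (4 genes) summed to 2937 to 3617 counts in Hypo against 2212 to 2589 in Ctrl, those of immune cells (4 genes) to 218 to 379 in Hypo against 117 to 130.4 in Ctrl, and those of endothelium (5 genes) to 113 to 136 in Hypo against 28.1 to 57.4 in Ctrl. All 3 sums were thus higher in every Hypo library than in every Ctrl library. Each of the 3 lists named 6 genes, and those absent from the deposited results could not be counted. None of the genes present was at 0 throughout. The part of these markers in the results below was not tested. Neither the labels nor the methods state that replicate libraries were grown as independent cultures, and the p-values then reflect only the spread among the sequenced samples, part of which may be technical. Fewer cells expressing a gene and less RNA per cell cannot be told apart in such bulk RNA.

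Promoters of 4 of the genes are shown because they carry the features on which the genes differ, namely the p53 decamer and the number of CG dinucleotides, the sites of DNA methylation. Each is the 250 bases before the RefSeq transcription start (GRCm38.p6), 5′ to 3′ on the strand of the gene, with p53 decamers in capitals. The start is the most upstream one RefSeq lists for the gene. Cdkn1a, which encodes the cell cycle inhibitor p21, lies on the + strand of chromosome 17, and its window is chr17:29090729-29090978. Mdm2 lies on the - strand of chromosome 10, with the window chr10:117710759-117711008. Ccng1 is on the - strand of chromosome 11 (chr11:40755287-40755536). Gdf15 is on the - strand of chromosome 8 (chr8:70632457-70632706).
Cdkn1a: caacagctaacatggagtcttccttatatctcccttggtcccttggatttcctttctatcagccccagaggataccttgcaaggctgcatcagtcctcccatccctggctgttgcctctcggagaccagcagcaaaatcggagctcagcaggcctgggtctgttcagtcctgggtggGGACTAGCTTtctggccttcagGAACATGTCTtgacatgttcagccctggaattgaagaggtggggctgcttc
Mdm2: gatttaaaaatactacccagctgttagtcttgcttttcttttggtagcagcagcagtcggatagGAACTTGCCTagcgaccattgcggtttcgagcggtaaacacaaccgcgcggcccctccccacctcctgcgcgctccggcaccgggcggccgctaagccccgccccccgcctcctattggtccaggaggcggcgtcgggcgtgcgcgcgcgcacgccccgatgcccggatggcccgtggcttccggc
Ccng1: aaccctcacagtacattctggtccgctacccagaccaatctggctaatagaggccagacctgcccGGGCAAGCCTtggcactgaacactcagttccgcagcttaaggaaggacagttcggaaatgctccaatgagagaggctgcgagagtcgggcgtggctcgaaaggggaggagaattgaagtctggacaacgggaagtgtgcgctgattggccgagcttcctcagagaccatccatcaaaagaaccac
Gdf15: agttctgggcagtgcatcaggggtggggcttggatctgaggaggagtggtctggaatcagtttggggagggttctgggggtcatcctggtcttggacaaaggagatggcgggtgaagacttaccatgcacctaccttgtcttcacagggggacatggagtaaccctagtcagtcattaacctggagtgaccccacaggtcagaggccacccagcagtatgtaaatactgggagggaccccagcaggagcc

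The p53 decamer, read on both strands and identical to its own reverse complement in pattern, was found in 6 of the 9 genes with a RefSeq promoter (Trp53, Mdm2, Cdkn1a, Bax, Ccng1 and Gadd45a) and in 7.16% of the promoters of 27025 genes. Pmaip1 was not among the 9. Cdkn1a held 2 decamers, GGACTAGCTT at -73 to -64 and GAACATGTCT at -51 to -42 from the start, which form a full site with a 12-base spacer and no mismatch. A full site without mismatch occurred in 0.0444% of all promoters, where pairs with and without a spacer were counted alike. GAACATGTCT was also part of a full site without spacer and with 1 mismatch, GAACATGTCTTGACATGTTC at -51 to -32. Mdm2 held 1 decamer, GAACTTGCCT at -186 to -177. Ccng1 held GGGCAAGCCT at -185 to -176, in a full site with 1 mismatch, and Bax also held a full site with 1 mismatch, against 0.87% of all promoters with at most 1 mismatch. No decamer was found in this window of Gdf15, Trp73 or Bbc3, and sites outside the window were not searched. Bases just after the start were found in an annotated transcript of each of the 9 genes except Bbc3, whose window is thus less certain. The motif TGATGNAA, bound by ATF4 with C/EBP factors and searched on both strands, was in none of the 9 windows and in 3.53% of all promoters. CG dinucleotides were few in Gdf15 (1) and Cdkn1a (2), more in Trp53 (9), Ccng1 (11), Gadd45a (11) and Bax (14), and many in Bbc3 (27), Mdm2 (29) and Trp73 (31), against a median of 6 over all promoters. Both CG-poor and CG-rich windows were thus found among the called genes. This holds for the most upstream start only, and windows at other starts of these genes were not counted. Such matches describe the letters only, and neither methylation nor binding at these windows was measured here.

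Trp53 encodes p53 itself (ENSMUSG00000059552, GRCm38 chromosome 11, 69580359 to 69591873). Its normalized counts were 1633, 1320, 1305 and 1458 in Hypo replicates 2 to 5, against 1308, 1089, 1943 and 1130 in Ctrl replicates 1 to 4. The groups overlapped, and Ctrl replicate 3 was the highest of all 8 libraries. The means were 1429 ± 153 in Hypo and 1368 ± 395 in Ctrl, a difference of 0.08 ± 0.13 (SE) on the transformed scale with a limma adjusted p of 0.72. Without Ctrl replicate 3 the difference was 0.23 and passed (adjusted p = 0.027), and without Ctrl replicate 2 it was -0.0025. A processed pseudogene of Trp53, with which reads could be shared, had a mean of 1.26 counts.

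Trp73 encodes the p53 relative p73, which can act on many of the same target genes (ENSMUSG00000029026, chromosome 4, 154056253 to 154140208). It had 6.94, 7.86, 1.84 and 9.84 normalized counts in Hypo, against 3.07, 4.35, 3.62 and 3.42 in Ctrl. The highest 3 libraries were Hypo and the lowest was Hypo replicate 4. These counts come from 27 reads in Hypo and 16 in Ctrl, a ratio of 1.80 per depth with a 95% exact interval of 0.938 to 3.58 that covers counting error only. The difference of means of 3.002 counts had a two-sided exact permutation p of 0.143 over 70 relabelings, whose smallest possible p is 0.0286. A difference was not detectable at this depth. A noncoding gene, Trp73os, overlaps 280 bases of Trp73 on the opposite strand and was not analysed here.

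Mdm2, the ubiquitin ligase gene that p53 itself activates, was among the genes that rose (ENSMUSG00000020184, chromosome 10, 117688875 to 117710758). It had 2276, 2233, 2346 and 2482 normalized counts in Hypo, against 1837, 1835, 1894 and 1923 in Ctrl. The lowest Hypo library stood above the highest Ctrl library, and Ctrl replicate 3 lay within the range of the other Ctrl libraries. The means were 2334 ± 109 in Hypo and 1872 ± 43.3 in Ctrl, 1.25-fold higher, with a difference of 0.28 ± 0.05 and a limma adjusted p of 0.00085. The paralog Mdm4, which binds p53 without the ligase activity of Mdm2, had 4389 ± 808 counts in Hypo and 4684 ± 559 in Ctrl (adjusted p = 0.57).

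Cdkn1a was the arrest gene with a clear change (ENSMUSG00000023067, chromosome 17, 29090976 to 29100727). Its p21 product binds and inhibits cyclin-dependent kinases. It had 1706, 1475, 1496 and 1743 normalized counts in Hypo, against 850.5, 934, 893 and 929 in Ctrl. All 4 Hypo libraries stood well above the 4 Ctrl libraries, and Ctrl replicate 3 lay within the range of the other Ctrl libraries. The means were 1605 ± 139 in Hypo and 902 ± 38.9 in Ctrl, 1.78-fold higher, with a difference of 0.69 ± 0.06 and a limma adjusted p of 6.4e-06. The call was kept in each of the 22 alternatives run, with adjusted p of at most 0.0011. A gene of 6.95 mean counts, AC167363.2, overlaps it on the opposite strand over 273 bases.

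The other members of the Cip/Kip family of kinase inhibitors moved in both directions. Cdkn1c, the p57 gene and an imprinted gene, rose to 54.6 ± 13.3 counts in Hypo, against 8.10 ± 2.64 in Ctrl, 6.75-fold higher (difference 0.55, limma adjusted p = 3.7e-05), and met the minimum of 10 only through Hypo. Cdkn1b, the p27 gene, fell to 2902 ± 157 counts in Hypo, against 3720.2 ± 180.3 in Ctrl (difference -0.33, adjusted p = 0.00064).

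Ccng1 encodes cyclin G1, a p53 target that acts with phosphatase PP2A on Mdm2 (ENSMUSG00000020326, chromosome 11, 40748552 to 40755311). It had 3160, 3355, 3167 and 3175 normalized counts in Hypo, against 3623, 3682, 3150 and 3594 in Ctrl. Ctrl replicate 3 was the lowest library of all and the other 3 Ctrl libraries were above every Hypo library. The means were 3214 ± 94.3 in Hypo and 3512 ± 244 in Ctrl, with a difference of -0.12 ± 0.05 and a limma adjusted p of 0.14. Without Ctrl replicate 3 the difference was -0.16 and passed as a fall (adjusted p = 0.011). Its paralog Ccng2 had 1760.3 ± 307 counts in Hypo and 1684 ± 70.2 in Ctrl (adjusted p = 0.79).

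Gadd45a, a damage-inducible gene that acts in growth arrest and stress kinase signalling (ENSMUSG00000036390), lies on chromosome 6 at 67035096 to 67037457. It had 761, 593, 827 and 559 normalized counts in Hypo, against 609, 611, 1310 and 524 in Ctrl. Ctrl replicate 3 was again the highest library, and the groups overlapped. The means were 685 ± 130 in Hypo and 763 ± 366 in Ctrl, with a difference of -0.07 ± 0.19 and a limma adjusted p of 0.84, and the difference was 0.16 without Ctrl replicate 3 and 0.0021 without Hypo replicate 5, neither of which passed. A noncoding gene of 85.1 mean counts, E230016M11Rik, overlaps 337 bases of Gadd45a on the opposite strand. No source used here states if strand was considered in the counting, so some reads may belong to either gene. Of the paralogs, Gadd45g rose to 222 ± 30.6 counts in Hypo, against 151 ± 19.1 in Ctrl (difference 0.28, adjusted p = 0.010), a call lost after quantile normalization (adjusted p = 0.071). Gadd45b had 2606 ± 226 counts in Hypo and 2869 ± 156 in Ctrl (adjusted p = 0.16) and was called lower without Hypo replicate 4 (adjusted p = 0.038).

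Of the 3 apoptosis genes, 1 passed the test. Pmaip1 encodes the BH3-only protein Noxa, which neutralizes the survival protein MCL1 (ENSMUSG00000024521, chromosome 18, 66458533 to 66465565). It had 26.6, 18.3, 8.26 and 35.4 normalized counts in Hypo, against 1.02, 2.61, 0 and 1.71 in Ctrl. Every Hypo library was above every Ctrl library, though Hypo replicate 4 was the lowest of its group. The difference was 0.44 ± 0.07 with a limma adjusted p of 0.0012. It came from 89 reads in Hypo and 6 in Ctrl. Their ratio per depth was 15.9, with a 95% exact interval of 7.01 to 44.4 that covers counting error only. Pmaip1 was called in each of the 21 alternatives in which it was tested, with adjusted p of at most 0.024.

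Bbc3 encodes the BH3-only protein Puma (ENSMUSG00000002083, chromosome 7, 16308393 to 16318205). It had 309, 182, 233 and 197 normalized counts in Hypo, against 149, 157, 284 and 150.5 in Ctrl. Hypo was above the other 3 Ctrl libraries throughout, and Ctrl replicate 3 was the second highest of all 8 libraries. The means were 230 ± 56.8 in Hypo and 185 ± 66.2 in Ctrl, with a difference of 0.17 ± 0.12 and a limma adjusted p of 0.33. Without Ctrl replicate 3 the difference was 0.29 and passed (adjusted p = 0.021).

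Bax encodes a pore-forming protein of the outer mitochondrial membrane (ENSMUSG00000003873, chromosome 7, 45461697 to 45466898). It had 1137, 1130, 1093 and 1357 normalized counts in Hypo, against 1230, 1197, 1202 and 1222 in Ctrl. The Ctrl libraries lay close together, with 3 Hypo libraries below them and Hypo replicate 5 above. The means were 1179 ± 120 in Hypo and 1212 ± 15.7 in Ctrl, a difference of -0.04 ± 0.06 that did not pass in limma (adjusted p = 0.70) or in any alternative. Another gene model, Gm45808, overlaps 192 bases of Bax on the same strand and was not analysed here. The pore-forming paralog Bak1 had 3283 ± 424 counts in Hypo and 3793 ± 632 in Ctrl (adjusted p = 0.26) and was called lower without Ctrl replicate 3 (adjusted p = 0.013).

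Gdf15 encodes a secreted factor of the TGF-β superfamily that is induced by several kinds of cell stress (ENSMUSG00000038508, chromosome 8, 70629393 to 70632456). It had 100.6, 49.8, 44.99 and 61.0 normalized counts in Hypo, against 0, 0.87, 3.62 and 0.85 in Ctrl. All Hypo libraries stood far above all Ctrl libraries, with Ctrl replicate 3 the highest of Ctrl and Hypo replicate 2 the highest of Hypo. The same 2 libraries had the highest stress gene means, whose part in the Gdf15 values was not tested. The difference was 0.84 ± 0.08 with a limma adjusted p of 1.4e-05. It came from 255 reads in Hypo and 6 in Ctrl. Their ratio per depth was 45.4, with a 95% exact interval of 20.6 to 125 that covers counting error only. Gdf15 was called in each of the 21 alternatives in which it was tested, with adjusted p of at most 0.00088.

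Per kilobase of exon, which allows levels of different genes to be compared, the order in Hypo was Ccng1 (915 ± 26.8 counts per kb), Bax (748 ± 76.4), Mdm2 (459 ± 21.4), Cdkn1a (452 ± 39.2), Gadd45a (388 ± 73.5), Trp53 (353 ± 37.7), Bbc3 (108 ± 26.7), Gdf15 (34.6 ± 13.6), Pmaip1 (8.11 ± 4.24) and Trp73 (1.20 ± 0.616). Mdm2 and Cdkn1a lay within 1 SD of each other there, as did Gadd45a and Trp53. The means of Mdm2 and Cdkn1a also lay within 1 SD of that of Gadd45a. In Ctrl the order was Ccng1 (1000.04 ± 69.6 counts per kb), Bax (769 ± 9.93), Gadd45a (433 ± 208), Mdm2 (368 ± 8.52), Trp53 (338 ± 97.8), Cdkn1a (254 ± 10.9), Bbc3 (87.2 ± 31.2), Gdf15 (0.722 ± 0.852), Trp73 (0.653 ± 0.0970) and Pmaip1 (0.489 ± 0.403). Without Ctrl replicate 3, the other 3 Ctrl libraries placed Gadd45a (329 ± 28.1 counts per kb) below Mdm2 (367 ± 9.84) and Gdf15 (0.310 ± 0.269) below Trp73 (0.653 ± 0.119) and Pmaip1 (0.652 ± 0.291). The SDs of Gadd45a, Mdm2 and Trp53 overlapped in Ctrl with all 4 libraries, and so did those of Gdf15, Trp73 and Pmaip1. That of Cdkn1a overlapped those of Gadd45a and Trp53 but not that of Mdm2. Gdf15 thus remained, even in Hypo, at a small share of the level of Cdkn1a per length.

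**Figure D2:**
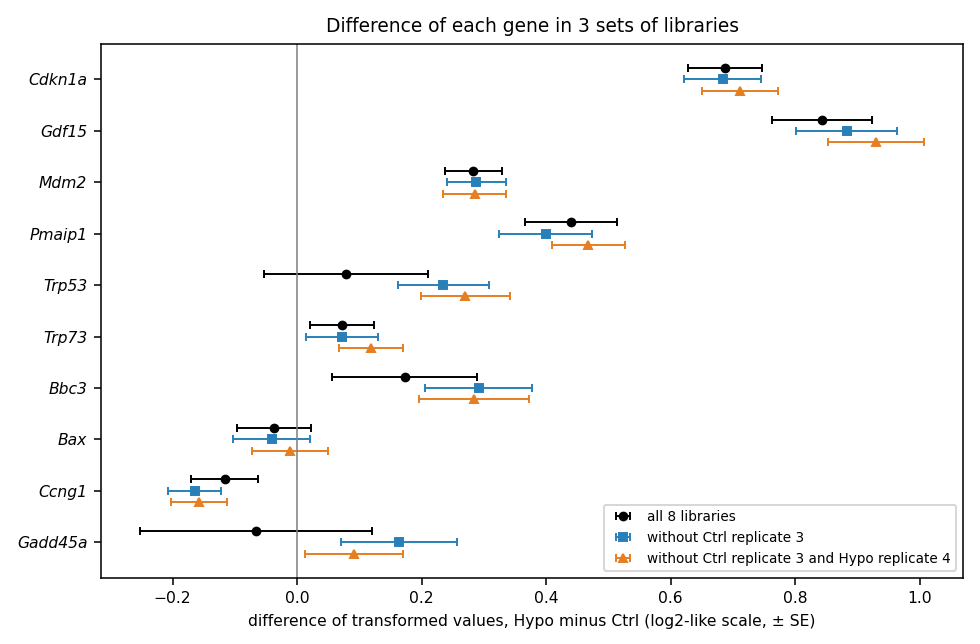
Difference of the transformed values of the 10 genes (Hypo minus Ctrl, log2-like scale) with its SE, in all 8 libraries, without Ctrl replicate 3, and without both Ctrl replicate 3 and Hypo replicate 4. Trp73 comes from the fit without a minimum count: Gdf15, Cdkn1a, Pmaip1 and Mdm2 stay above 0 in all 3 sets, while Trp53 (0.08 and 0.23 in the first 2 sets) and Gadd45a (-0.07 and 0.16) shift when Ctrl replicate 3 is left out.

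Ctrl replicate 3 was thus the library on which the calls of Trp53, Bbc3 and Ccng1 turned. Without it 6 of the 9 tested genes were called higher and 1 lower, beside 2743 and 2095 of all 15746 genes. Without both Ctrl replicate 3 and Hypo replicate 4 the counts were also 6 and 1. In that library Gadd45a, Trp53 and Bbc3 were the highest of Ctrl and Ccng1 the lowest, whereas Cdkn1a and Mdm2 stayed within the range of the other Ctrl libraries. Among the 19 stress genes, in all 8 libraries 1 rose (Atf3) and 1 fell (Phgdh). Without Ctrl replicate 3, 6 rose (Atf3, Atf4, Ddit3, Trib3, Ppp1r15a and Mthfd2) and 0 fell. That library was set apart by the high values of these same genes. Leaving it out therefore favours rises among them, and these 6 are no separate result. Ddit3, which encodes CHOP and was named after its values were seen, had 1150, 582, 703 and 578 counts in Hypo, against 295, 293, 1511 and 238 in Ctrl. It did not pass with all libraries (difference 0.50, limma adjusted p = 0.35). Without Ctrl replicate 3, the library in which it was highest, it passed (0.95, adjusted p = 0.00036), so this call rests on the choice of library. With any other single library left out, its limma adjusted p was 0.31 to 0.62. Atf3, a stress transcription factor gene that is also described as a p53 target, rose to 1652 ± 398 counts in Hypo, against 896 ± 179.8 in Ctrl, 1.85-fold higher (difference 0.72, adjusted p = 0.0038). Phgdh, a serine synthesis gene, lost its call (difference -0.16, adjusted p = 0.043) without any 1 of Ctrl replicates 1 to 4 or Hypo replicates 2, 3 and 5, and after quantile normalization (0.26).

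**Figure D3:**
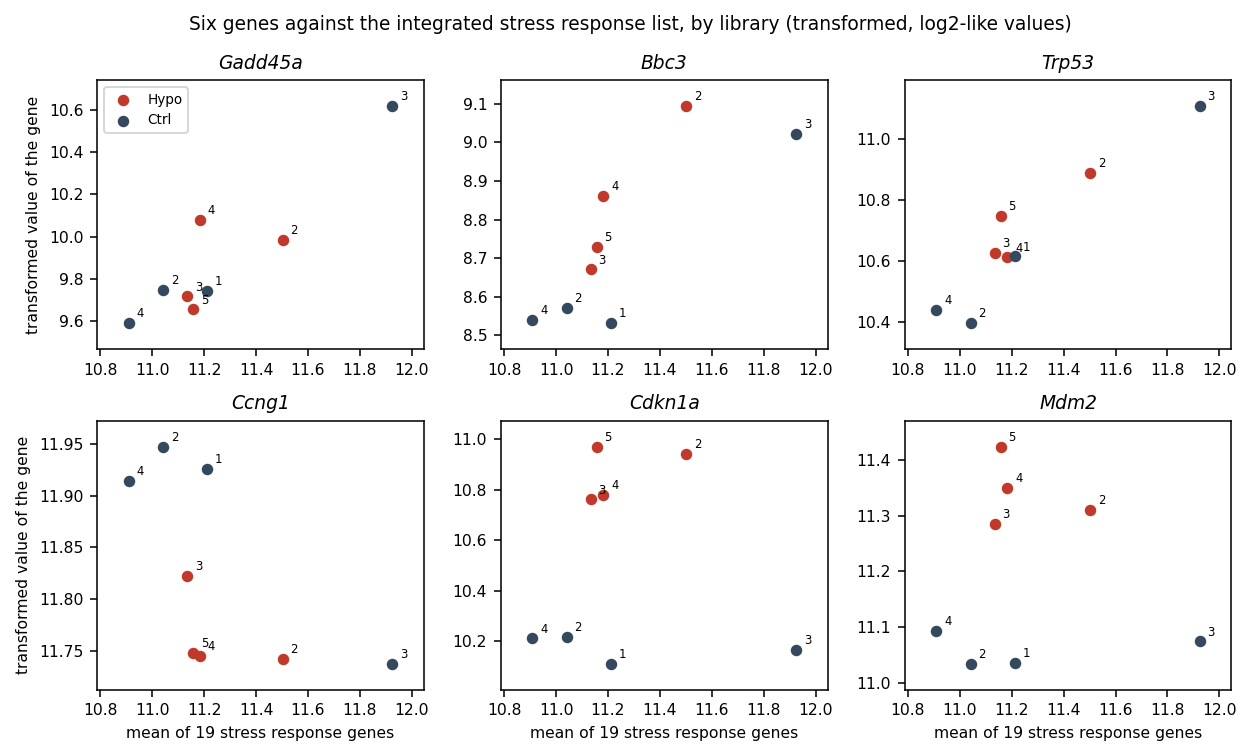
Transformed values (log2-like scale) of Gadd45a, Bbc3, Trp53, Ccng1, Cdkn1a and Mdm2 in each library against the mean transformed value of 19 integrated stress response genes in that library. Hypo and Ctrl libraries have separate marks, and Ctrl replicate 3 lies at the right end at 11.92.

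The 7 lists of related genes, when pooled, held changed genes at about the share found among all genes. They were chosen with earlier results of these data known and leave out the 10 genes above. Beside p53 targets and regulators they cover damage signalling, DNA repair, the Bcl2 family, paralogs and the integrated stress response. In them 124 different genes were tested, of which 18 rose and 11 fell, 23.4% in all against 22.8% of all tested genes. The pooled share does not stand for any single list. Cdkn1c, Trp63 and Hrk, counted among the rises, met the minimum only through Hypo, which limits this comparison. Among 30 transcriptional targets of p53, 3 rose, 2 fell and 25 did not pass, with a median difference of 0.03 against 0.0035 over all tested genes. Dram1, which encodes a lysosomal protein of autophagy, rose to 289 ± 7.62 counts in Hypo, against 163 ± 31.2 in Ctrl, 1.77-fold higher (difference 0.45 ± 0.07, limma adjusted p = 0.00050). Btg2, an antiproliferative gene, rose 1.51-fold to 314 ± 32.9 counts in Hypo, against 208 ± 17.2 in Ctrl (difference 0.33, adjusted p = 0.0018). The death receptor gene Fas, named after its values were seen, rose 1.59-fold (difference 0.45, adjusted p = 0.039), a call lost without Ctrl replicate 1 (adjusted p = 0.12), Ctrl replicate 2 (0.0997), Hypo replicate 2 (0.084) or Hypo replicate 4 (0.077), with DESeq2 (0.067) and after quantile normalization (0.063). The glutaminase gene Gls2 (difference -0.18, adjusted p = 0.021) and the desmosomal gene Perp (-0.16, adjusted p = 0.026) fell. The call of Gls2 was lost without Ctrl replicate 1 (0.065), Ctrl replicate 4 (0.076), Hypo replicate 2 (0.064) or Hypo replicate 3 (0.056), and that of Perp without Ctrl replicate 1 (0.090), Ctrl replicate 2 (0.068), Hypo replicate 4 (0.062) or Hypo replicate 5 (0.063) and after quantile normalization (0.19). Without Ctrl replicate 3, 5 targets rose and 6 fell, beside 2743 and 2095 of all 15746 tested genes. Both falls were lost without Ctrl replicate 1, where 1800 of all tested genes rose and 881 fell. Of the 2 falls, 1 remained when Ctrl replicate 2, Ctrl replicate 4, Hypo replicate 2 or Hypo replicate 3 was left out.

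Of 15 tested family members and regulators of p53, 2 rose, 2 fell and 11 did not pass. Ppp1r13b, which encodes the p53 cofactor ASPP1, rose to 1884 ± 113 counts in Hypo, against 1375 ± 84.2 in Ctrl (difference 0.39, limma adjusted p = 0.00030). Trp63, the p63 gene, rose to 23.7 ± 4.27 counts in Hypo, against 7.17 ± 3.95 in Ctrl (0.27, adjusted p = 0.0025), and met the minimum only through Hypo. Hipk2, a kinase that acts on p53, fell to 1334 ± 88.9 counts in Hypo, against 1697.5 ± 75.0 in Ctrl (-0.30, adjusted p = 0.0017), and so did Trp53bp1, the 53BP1 gene (-0.20, adjusted p = 0.0046). Cdkn2a was not analysed here. Without Ctrl replicate 3, 3 of the 15 rose and 2 fell. Of the 8 close paralogs of the 10 genes, Cdkn1c, Trp63 and Gadd45g rose, Cdkn1b fell and Mdm4, Gadd45b, Ccng2 and Bak1 did not pass. A second paralog fell without Ctrl replicate 3 (Bak1) or without Hypo replicate 4 (Gadd45b).

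Of 22 genes of DNA damage signalling, 4 rose (Brca1, Nbn, Mdc1 and Rnf168), 3 fell (H2ax, Trp53bp1 and Wee1) and 15 did not pass, and without Ctrl replicate 3, 4 rose and 4 fell. H2ax, the histone variant gene whose product is phosphorylated at DNA breaks, fell to 1902 ± 270.4 counts in Hypo, against 3111 ± 169 in Ctrl (difference -0.65, limma adjusted p = 8.8e-05). The kinase gene Wee1 fell 0.17 on the transformed scale (adjusted p = 0.016), a call lost without Ctrl replicate 4 (0.061) or Hypo replicate 2 (0.051). Brca1 rose 1.23-fold (0.27, adjusted p = 0.0074). The call of Nbn was lost without Hypo replicate 3 (0.061), that of Mdc1 when Ctrl replicate 1, 2, 4 or Hypo replicate 2, 4 was left out (0.066 to 0.088), and that of Rnf168 when Ctrl replicate 2, 3, 4 or Hypo replicate 2, 3, 5 was left out (0.069 to 0.13) or after median centring (0.054). In all, 2 genes rose when Hypo replicate 2, Hypo replicate 3 or Ctrl replicate 2 was left out. Of 24 genes of DNA repair, 5 rose (Rad51c, Brip1, Fancd2, Brca2 and Mbd4), Ung fell and 18 did not pass. The homologous recombination gene Rad51c rose to 868 ± 10.7 counts in Hypo, against 649.8 ± 32.2 in Ctrl (0.32, adjusted p = 0.00046), and the Fanconi anemia genes Brip1 and Fancd2 rose 1.34-fold and 1.25-fold (adjusted p = 0.00056 and 0.0046). Ung, the uracil glycosylase gene, fell to 437 ± 26.2 counts in Hypo, against 601 ± 83.6 in Ctrl (-0.32, adjusted p = 0.0082). Without Ctrl replicate 4 only 3 repair genes rose, with Mbd4 at 0.052 and Brca2 at 0.062, and Brca2 also lost its call without Ctrl replicate 2 (0.062) or Hypo replicate 3 (0.068). In this list 2 fell without Ctrl replicate 3 or Hypo replicate 2.

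Of 12 tested genes of the Bcl2 family, 1 rose, 2 fell and 9 did not pass. The BH3-only gene Hrk rose to 19.97 ± 3.83 counts in Hypo, against 8.34 ± 2.16 in Ctrl (difference 0.19, limma adjusted p = 0.0079), a call lost after quantile normalization (0.12). Hrk met the minimum only through Hypo. The survival gene Mcl1, whose product Noxa neutralizes, fell to 3302 ± 137 counts in Hypo, against 4067 ± 233 in Ctrl (-0.28, adjusted p = 0.0019). Bcl2, another survival gene, fell to 1113 ± 73.3 counts in Hypo, against 1359.8 ± 154 in Ctrl (-0.24, adjusted p = 0.027), a call lost when leaving out Hypo replicate 3 (0.071), Hypo replicate 5 (0.064) or Ctrl replicate 1 (0.057). The count of falls was 3 without Ctrl replicate 3.

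**Figure D4:**
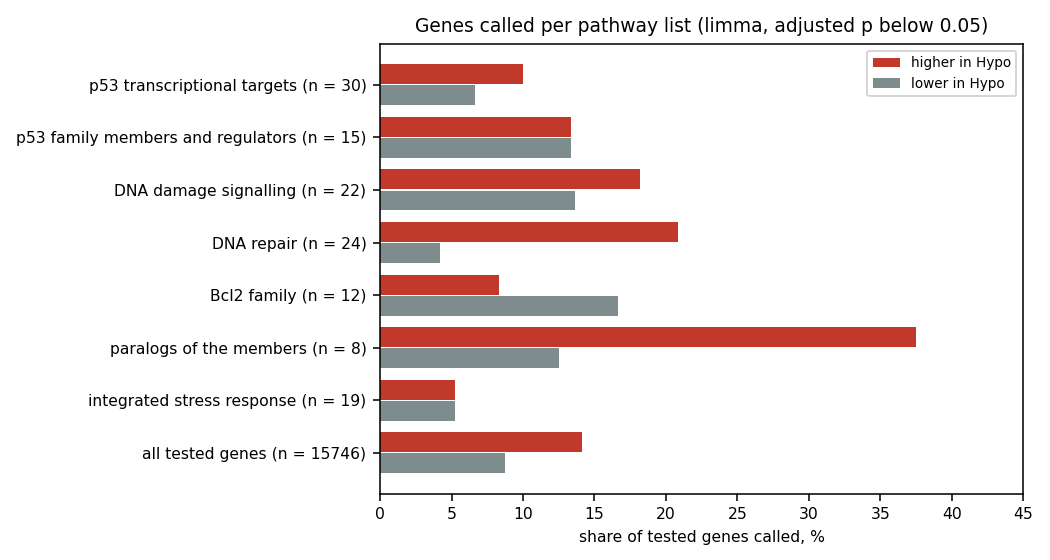
Share of tested genes called higher and lower in Hypo (percent, limma adjusted p below 0.05) in each of the 7 gene lists and in all 15746 tested genes, where 14.1% were higher and 8.75% lower. The lists hold 8 to 30 tested genes, so 1 gene is a large share of the shorter lists.

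Patterns over the 8 libraries were compared by the root mean square distance of transformed values centred on the Ctrl mean, among 11322 annotated genes with a mean of at least 50 counts. Nearest to Cdkn1a were Arap3 (0.0469), Fads6 (0.0469) and Faim2 (0.0517). Nearest to Gdf15 were Apol9b (0.0730), Vav1 (0.0739) and Cdh3 (0.0833), and near to Pmaip1 were Arhgap9 (0.0511) and Bdh1 (0.0579). None of these genes is in the lists above, and a short distance says only that the transformed values run alike. Levels and folds can differ. Apol9b had 1117 ± 184 normalized counts in Hypo and 506 ± 95.3 in Ctrl, against 64.1 ± 25.3 and 1.34 ± 1.58 for Gdf15.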

How the data were processed

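RNA of 8 libraries of 4T1 cells was compared, with groups and replicate numbers from the sample titles. According to the methods, stranded libraries of polyadenylated RNA were sequenced, and reads were aligned with STAR to GRCm38 and counted per gene. The submitters' processing notes also name HTSeq, DESeq2 and bcl2fastq. The authors deposited normalized counts, a signal in which reads were divided by a size factor, and variance-stabilized values on a log2-like scale. For 69.9% of 23604 genes with reads, the authors' deposited average was more than 10% away from the average computed over these 8 libraries. Size factors and transformed values may therefore rest on further libraries not known here. The comparison made by the authors (mean expression, log2 fold change with its standard error, Wald score, p-value and adjusted p-value, per the file headers) was not used. In every library 100% of the normalized counts were whole reads within a tolerance of 0.01, and the recovered reads served edgeR 4.0.16 and DESeq2 1.42.0 as alternatives.

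The main test was limma 3.58.1 (trend, two-sided, Benjamini-Hochberg) in R 4.3.3 on the deposited transformed values, for 15746 of the 23215 genes in both tables (mean of at least 10 normalized counts). The fits were tested on simulated data. Levels are means ± SD, folds are ratios of group means, and intervals cover counting error only because reads carry no molecular identifiers. Promoters are RefSeq's, and positions, exon lengths and overlaps those of the GENCODE annotation of GRCm38. The members and lists were chosen with earlier results of these data known. Named were the 10 genes, the 4 genes of smallest p in each list, every paralog, and the 3 nearest genes of the 3 members with the largest differences, of which 1 is not reported here. Genes outside this rule, among them Fas, Ddit3 and further called list members, were named after their values were seen. Alternatives were other minimum counts, scalings, tools, array weights, each library left out, Ctrl replicate 3 with Hypo replicate 4 left out, and a replicate block. Levels per kb without Ctrl replicate 3 were added after seeing the data.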

Additional observations from a re-analysis of the deposited data

Results flagged for a closer look

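Each of the 10 genes was checked in each group of 4 libraries for a library far from the others, and 5 of the 20 groups held one. The rule flags about 1 in 20 groups of independent, normally spread values. The same libraries recur here over all genes, so the 5 cannot be set against that rate. Ctrl replicate 3 was such a library for 3 genes, with 284 normalized counts of Bbc3, 3150 of Ccng1 and 1310 of Gadd45a, the highest of Ctrl for Bbc3 and Gadd45a and the lowest for Ccng1. Hypo replicate 5 had 1357 counts of Bax, the highest of Hypo, and Hypo replicate 3 had 3355 counts of Ccng1, also the highest of Hypo.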

How the results depend on the processing

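Of the alternatives run for each gene, 203 gave the same direction and side of the threshold, 7 newly passed, 1 no longer passed and 5 turned the direction. The number of the 10 genes higher in Hypo was 4, and 4 to 6 when each library was left out; it was 2 at a minimum of 50 counts, where Gdf15 and Pmaip1 were not tested. The number lower was 0, and 0 to 1 over libraries left out; it was 1 (Ccng1) with array weights (adjusted p = 0.020), without Ctrl replicate 3 and without both Ctrl replicate 3 and Hypo replicate 4. The calls over the 7 lists numbered 29, with 23 to 43 over libraries left out, 54 with array weights and 48 without both of those libraries. The calls over all tested genes moved as well. Without Ctrl replicate 3 (43 list calls) 2743 were higher and 2095 lower, and without both libraries 2835 and 2050. Without Ctrl replicate 1 (23 list calls) they were 1800 and 881. The difference of Trp53 was 0.27 without both libraries and -0.0025 to 0.23 and that of Gadd45a -0.18 to 0.16 over libraries left out. For Gadd45a it was 0.059 with array weights, 0.0021 without Hypo replicate 5 and 0.091 without both libraries; the cause was not tested.

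Whether the replicate numbers pair the libraries could not be settled. Deviations of same-numbered libraries correlated at -0.106, -0.214 and -0.17, and those of differently numbered libraries at -0.594 to 0.524. The deviations were centred within each group, which ties these correlations to one another, so they cannot decide on pairing. With the replicate number as a block over the 6 libraries with shared numbers, 3 of the 10 genes were higher (Mdm2 adjusted p = 0.056, against 0.011 for these libraries without the block) and the list calls numbered 11, against 21. Over all genes the block gave 1286 higher and 323 lower, array weights 3279 and 2673, and quantile normalization 1818 and 1962, so that 48.1% of calls were higher, against 61.7%. The number lower was 881, 852 and 862 when leaving out Ctrl replicate 1, Ctrl replicate 4 or Hypo replicate 3. Levels of Trp73, Pmaip1 and Gdf15 rest on few reads.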
